A study of Mus musculus with 24 samples.

Results

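The 35 genes described here carry glucose to pyruvate and lactate, or back to glucose. They comprise the glucose transporter gene Slc2a1, the enzymes of glycolysis, the bifunctional enzymes that set fructose 2,6-bisphosphate, lactate dehydrogenase, 2 monocarboxylate transporters, subunits and kinases of the pyruvate dehydrogenase step, the gluconeogenic enzymes and Bnip3. They were chosen by symbol from a list of the pathway. All 35 were found among the 21441 genes of each table used.

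The study addressed vitamin D action along the intestine in wild-type C57BL6J mice, and sequenced poly(A) RNA of 3 regions: duodenum, ileum and colon. Treated mice had been given calcitriol, the active vitamin D hormone, in 3 injections of 1 ng per g body weight, given 48, 24 and 6 h before the end. Vitamin D-deficient mice are labelled as having had no treatment, and the labels do not say whether treated mice had been deficient before their injections. The labels give ages of 10 to 14 with no unit and both sexes in both groups, but do not tie either to a column of the tables. The values cover 4 treated and 4 deficient libraries of the duodenum, 4 treated and 3 deficient of the ileum, and 4 treated and 4 deficient of the colon. The labels name the region only, and do not say whether the whole wall or the epithelium was taken. They also do not state that each library came from its own animal, so p-values measure only the spread between these libraries.

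Glycolysis splits glucose into pyruvate, with hexokinase, phosphofructokinase and pyruvate kinase as its controlled steps. Pyruvate is then reduced to lactate and exported, or oxidised in mitochondria through pyruvate dehydrogenase. Gluconeogenesis bypasses the controlled steps with pyruvate carboxylase, phosphoenolpyruvate carboxykinase, fructose-1,6-bisphosphatase and glucose-6-phosphatase, and in mammals it is known from the liver, the kidney and the small intestine. Absorptive cells of the small intestine take up dietary sugars, whereas colonocytes use butyrate, taken up from the lumen by the transporter that Slc16a1 encodes, as a main fuel.

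Libraries are named by group and column number. One scheme has serial numbers (treated 1 and deficient 1, 2 and 3) and the other has 4-digit numbers (treated 3xD5711, 3xD5720 and 3xD5734, and deficient 5718, whose column is minusD5718 and which the ileum lacks). The schemes nearly coincide with treatment, and depth follows them: recovered reads came to 18609732 to 31085196 in serial libraries and 12231408 to 15265703 in 4-digit ones. Treatment, naming scheme and depth therefore cannot be told apart over most of the libraries, and differences within each scheme stand beside the pooled ones. The regions carried their own markers: the 7 enterocyte markers summed to 13781 to 22893 FPKM in duodenum, 6809 to 21388 in ileum and 2076 to 3175 in colon, and the 4 colonocyte markers to 74.4 to 194.2, 114.5 to 581.4 and 2987 to 9412. Markers of other tissues were detected too. In the duodenum the 7 stomach markers summed to 5549 to 10154 FPKM in 4-digit and 33.6 to 203.6 in serial libraries, and the 6 exocrine pancreas markers ranged from 444.8 to 24210. Treated 3xD5720 was the highest library for 27.1% of ileal genes and the lowest for 27.1%. It held the lowest ileal enterocyte sum, 6809 FPKM, although the marker Sis was highest there. Other libraries were extreme too: treated 1 of the colon was highest for 25.4% and lowest for 30.0% of colonic genes. Deficient 2 of the ileum was highest for 20.5% and lowest for 22.9% of ileal genes.

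In the NCBIM37 annotation (mm9), the protein-coding genes Slc2a1, Slc16a3, Bnip3 and Pck1 lie at chr4:118781316-118809935, chr11:120809794-120822182, chr7:146082519-146101202 and chr2:172978549-172984774, and Fbp1 and Pfkfb4 at chr13:62966113-62989642 and chr9:108893947-108934737. Promoter sequence is shown for 4 genes on which the results below turn. It covers the 250 bases before the gene's start in RefSeq on GRCm38.p6, a later build, read on the gene's own strand. Slc2a1 (chr4:119108495-119108744, plus strand), Slc16a3 (chr11:120948817-120949066, plus strand) and Bnip3 (chr7:138909507-138909756, minus strand) carry the letters ACGTG in capitals, the core of the site bound by hypoxia-inducible factors. In Bnip3 the capitals are CACGTG, which reads as ACGTG on both strands. Pck1 (chr2:173152823-173153072, plus strand) carries TTACGTCA in capitals, the cAMP response element known from the rat gene.
Slc2a1: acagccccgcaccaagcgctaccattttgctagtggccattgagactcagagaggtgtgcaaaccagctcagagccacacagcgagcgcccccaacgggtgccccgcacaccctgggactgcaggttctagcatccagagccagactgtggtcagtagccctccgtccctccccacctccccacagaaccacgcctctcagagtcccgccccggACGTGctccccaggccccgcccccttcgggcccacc
Slc16a3: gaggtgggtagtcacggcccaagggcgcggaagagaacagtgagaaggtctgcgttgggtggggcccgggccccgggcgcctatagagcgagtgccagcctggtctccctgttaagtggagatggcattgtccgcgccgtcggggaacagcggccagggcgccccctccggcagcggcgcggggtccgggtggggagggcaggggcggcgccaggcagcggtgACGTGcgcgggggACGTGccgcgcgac
Bnip3: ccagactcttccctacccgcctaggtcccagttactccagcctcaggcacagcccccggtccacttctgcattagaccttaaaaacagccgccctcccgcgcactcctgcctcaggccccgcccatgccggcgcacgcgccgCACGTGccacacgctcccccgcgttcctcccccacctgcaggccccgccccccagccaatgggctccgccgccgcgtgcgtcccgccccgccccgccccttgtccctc
Pck1: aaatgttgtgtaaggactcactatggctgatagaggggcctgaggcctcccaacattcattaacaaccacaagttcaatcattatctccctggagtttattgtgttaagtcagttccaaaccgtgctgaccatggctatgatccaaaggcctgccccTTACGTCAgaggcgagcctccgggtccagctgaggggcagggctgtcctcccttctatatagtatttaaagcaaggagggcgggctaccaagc
Promoters were matched for all 35 genes. On either strand, ACGTG was present in 16 of 35 (45.7%), against 18.5% of the 27025 genes with a promoter in the same table. TTACGTCA was present in Pck1 alone of the 35, and in 0.525% of all genes. A direct repeat of AGGTCA with a gap of 3 bases, a consensus form of the vitamin D response element, was present in 0 of the 35. It was present in 2 of the 27025 genes (0.0074%), so this exact form is too rare for the 0 to give a result about the 35. A match is a description of these letters and not a binding site.

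Grouped by arm of the pathway, the 35 genes had their highest summed levels in different regions. To compare regions, FPKM were divided by their library sum and scaled to one common total (TPM), because the tables had been normalized separately. Summed over the members of each arm, which leave out several isoenzymes given further below, the enzymes from triose phosphate to pyruvate reached 6336 ± 1134 TPM in duodenum (SD, n = 8), 2673 ± 318 in ileum (n = 7) and 3797.5 ± 469.9 in colon (n = 8). The hexose enzymes from hexokinase to aldolase were highest in the colon, at 1045 ± 163, 784.3 ± 81.3 and 1831 ± 254 TPM. The gluconeogenic enzymes summed to 434.3 ± 209.7, 280.5 ± 234.6 and 154.8 ± 37.01 TPM. In bulk tissue, fewer cells of a type and less RNA per cell cannot be told apart.

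**Figure D1:**
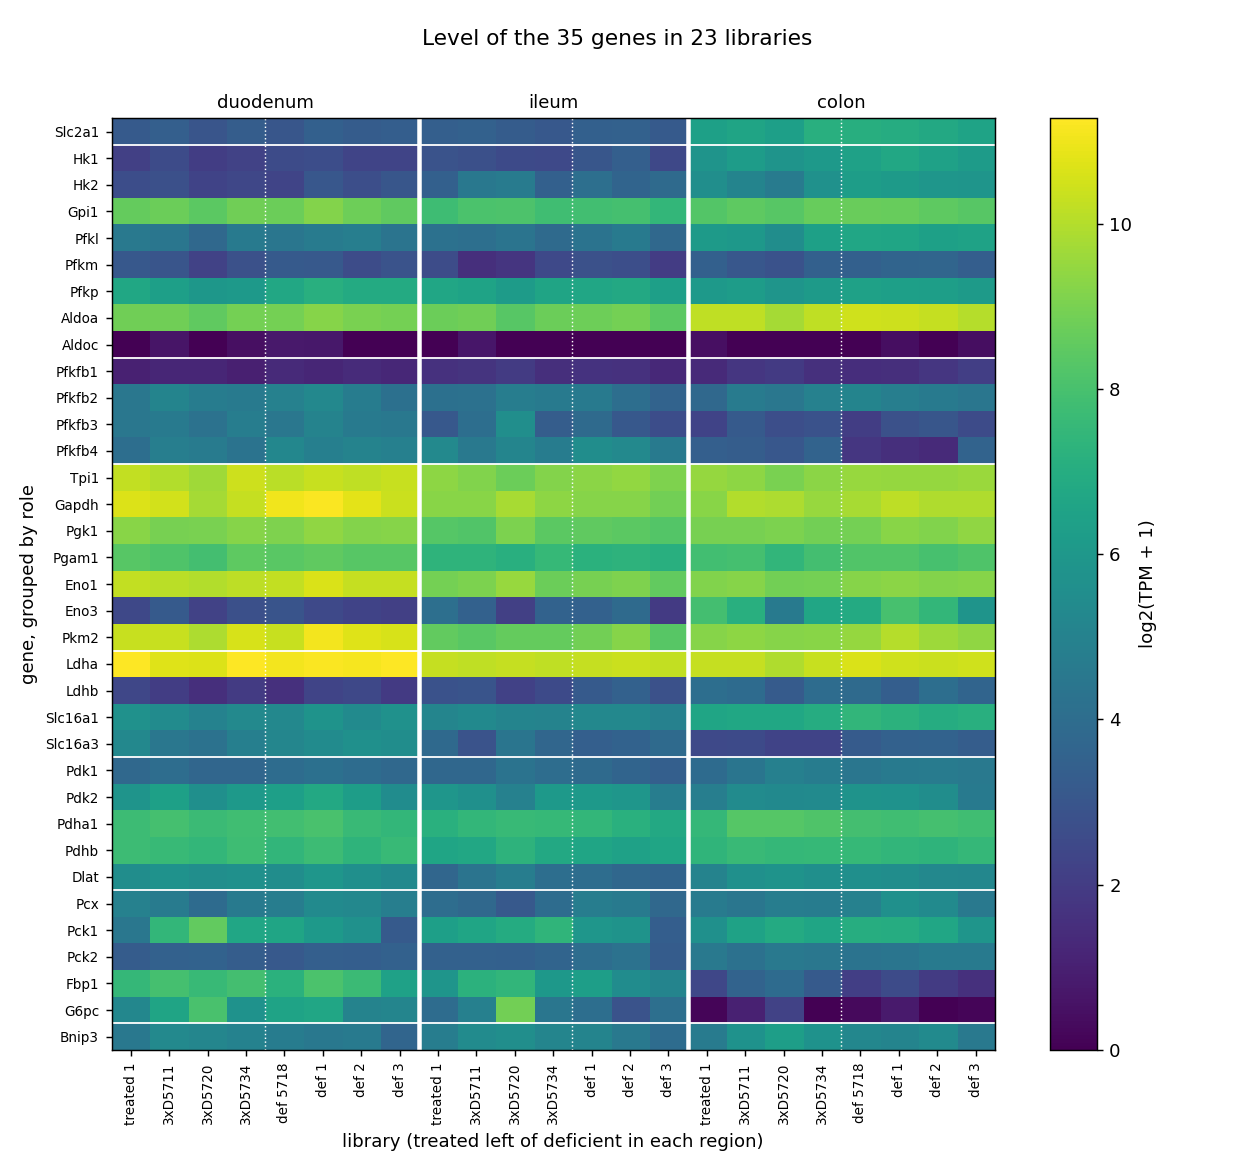
Level of each of the 35 genes as log2(TPM + 1), colour scale, in the 23 libraries, with genes in rows by role and treated libraries left of deficient ones within each region. Slc2a1, Hk1, Hk2 and Pfkl are brightest in the colon, and Fbp1 and G6pc in the duodenum and ileum.

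Between the duodenum and the colon, 27 of 34 genes tested differed (14 higher and 13 lower in the duodenum, limma, Benjamini-Hochberg adjusted p under 0.05), where 73.8% of all genes did. The balance of directions was unlike that of all genes, of which 11.7% were higher and 62% lower in the duodenum. On the TPM scale the median of all genes lay at -0.51 (log2), so calls were also required under median-ratio scaling, where that median was 0.00. Under both scalings 14 genes were higher in the duodenum and 9 lower, against 11.9% and 29.2% of all genes. Between the ileum and the colon, 26 of 34 differed (6 higher and 20 lower in the ileum), where 66.4% of all genes did, 8.71% higher and 57.7% lower, with a median of -0.44 over all genes. Under both scalings 6 were higher and 11 lower, against 8.84% and 20.9%. Between the duodenum and the ileum, 21 of 34 differed (17 higher and 4 lower in the duodenum), where 31.4% of all genes did, 12.9% higher and 18.4% lower, and the same 17 and 4 were called under both scalings, against 13.1% and 16.5%.

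Slc2a1, Hk1 and Hk2 were higher in the colon than in the duodenum and ileum. The opposite held for Hkdc1, a further hexokinase gene outside the 35, which exceeded the colon by 2.18 ± 0.25 in the duodenum and 1.77 ± 0.26 in the ileum (log2 TPM, SE, adjusted p = 1.4e-07 and 6.9e-06). Slc2a1, which encodes the basolateral glucose transporter GLUT1, stood at 6.87 to 9.95 TPM in duodenum (median 8.78), 7.73 to 10.5 in ileum (median 9.53) and 80.5 to 138.5 in colon (median 103.2). Hk1 and Hk2 encode hexokinases, which trap glucose in the cell. Hk1 ranged from 3.13 to 5.39 TPM in duodenum (median 3.94), 4.45 to 9.71 in ileum (median 5.70) and 55.3 to 106.6 in colon (median 72.8). Hk2 ranged from 3.79 to 7.32 (median 5.46), 9.82 to 25.0 (median 14.1) and 25.0 to 76.2 TPM (median 54.6). For all 3 genes every duodenal library lay below every colonic one, and for Slc2a1 and Hk1 the log2 differences from the colon were -3.48 ± 0.12 and -3.88 ± 0.13 in the duodenum (SE, adjusted p = 5.9e-16 and 6.8e-16) and -3.38 ± 0.12 and -3.41 ± 0.14 in the ileum (adjusted p = 4.1e-15 and 1.9e-14). Hk2 was lower by log2 differences of -3.02 ± 0.19 in the duodenum and -1.70 ± 0.20 in the ileum (adjusted p = 1.7e-11 and 3.6e-07). Levels per length within a region put Hk1 at 43.9 ± 6.1% of the pair of Hk1 and Hk2 in duodenum (SD). The share was 29.8 ± 10.6% in ileum and 59.6 ± 6.11% in colon. Hkdc1 is outside this pair, with medians of 164.7, 133.7 and 40.3 TPM in duodenum, ileum and colon. Its median lay above those of Hk1 and Hk2 in both small-intestinal regions and below both in the colon.

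Smooth muscle markers moved with some of these differences. All 7 of 7 were measured, and they summed to 174.5 to 473.2 FPKM in duodenum, 797.5 to 1168 in ileum and 887.5 to 4344 in colon, with 7 of 7 lower in both small-intestinal regions than in colon. Eno3, the muscle enolase, followed this order most steeply among the 34 genes tested, with 3.41 to 8.05 TPM in duodenum (median 4.58), 2.73 to 16.5 in ileum (median 10.3) and 24.0 to 251.3 in colon (median 127.8). Its log2 differences from the colon were -4.26 ± 0.41 and -3.61 ± 0.43 (SE, adjusted p = 1.3e-08 and 4.4e-07). Within the colon Eno3 measured 186.7, 82.5, 16.9 and 63.5 FPKM in treated 1, 3xD5711, 3xD5720 and 3xD5734, against 73.5, 149.5, 103.9 and 35.2 in deficient 5718, 1, 2 and 3. The smooth muscle sums of the same libraries were 4344, 2466, 887.5 and 1998 FPKM in treated and 1552, 1542.5, 3464 and 2337 in deficient ones. The extremes coincided, but deficient 1 had the second highest Eno3 with the second lowest sum, and deficient 3 the second lowest Eno3 with a sum in the middle of the range. The 6 skeletal muscle markers, all measured, summed to 3.72 to 8.68 FPKM in duodenum, 5.32 to 19.02 in ileum and 7.54 to 39.8 in colon, highest in treated 1 of the colon, with Myh4 at 0 in every duodenal and colonic library. The part of muscle content in the Eno3, Hk1 and Hk2 differences was not tested.

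The subunits of the committed step were present in different proportions in the 3 regions. Pfkl, Pfkm and Pfkp encode the liver, muscle and platelet subunits of phosphofructokinase. Pfkl lay at 13.1 to 27.3 TPM in duodenum (median 21.6), 12.8 to 23.04 in ileum (median 17.5) and 44.9 to 101.1 in colon (median 84.6). Pfkp overlapped between regions, with 61.0 to 139.5 (median 105.7), 72.6 to 109.7 (median 95.2) and 57.5 to 86.6 TPM (median 71.4). Pfkp therefore made up 77.5 ± 4.09% of the 3 subunits in duodenum, 81.3 ± 2.57% in ileum and 45.6 ± 4.12% in colon, and Pfkl 17.3 ± 3.6%, 15.2 ± 2.72% and 48.5 ± 4.03% (SD). Pfkl was lower in the duodenum and ileum by -1.82 ± 0.14 and -2.11 ± 0.15 (log2, SE, adjusted p = 5.7e-10 and 2.1e-10), and Pfkp was higher by 0.40 ± 0.11 and 0.35 ± 0.11 (adjusted p = 0.00232 and 0.0089). Aldoa, the next enzyme, was lower in both, at -1.29 ± 0.10 and -1.51 ± 0.11. Aldoc stood at 0 to 0.686 TPM in every library and was too low to test.

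The bifunctional enzymes that make and break fructose 2,6-bisphosphate, the activator of phosphofructokinase, had their own order. Pfkfb3 was at 18.2 to 31.8 TPM in duodenum (median 22.9), 5.42 to 46.0 in ileum (median 9.14) and 3.15 to 8.26 in colon (median 5.80). The ileal maximum was treated 3xD5720. Pfkfb4 was at 15.6 to 35.95 (median 27.8), 22.3 to 44.9 (median 34.05) and 1.53 to 11.1 TPM (median 8.23). Pfkfb4 was higher in both small-intestinal regions than in the colon, by 2.04 ± 0.24 and 2.34 ± 0.25 (log2, SE, adjusted p = 2.5e-07 and 1.2e-07), with no overlap of libraries in either comparison. Pfkfb3 was higher by 1.91 ± 0.27 and 0.93 ± 0.28 (adjusted p = 2.6e-06 and 0.00669), with overlap between ileum and colon. Pfkfb2 made up 62 ± 12% of the 4 isoforms in colon, against 34 ± 4.66% in duodenum and 28.5 ± 5.35% in ileum.

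From triose phosphate to lactate, Tpi1, Gapdh, Pgam1, Eno1, Pkm2 and Ldha had their highest levels in the duodenum. Eno3 and Ldhb were instead lower there than in the colon under both scalings (-4.26 ± 0.41 and -1.76 ± 0.17 as TPM, log2, SE). Pkm2, a pyruvate kinase gene whose isoforms these values do not separate, ranged from 955.9 to 2127 TPM in duodenum (median 1405). It ranged from 322.7 to 604.2 in ileum (median 384.2) and 594.6 to 1047 in colon (median 664.9). Ldha, the subunit that favours lactate formation, ranged from 1637 to 2476 (median 2312), 1169 to 1325 (median 1227) and 983.4 to 1608 TPM (median 1305). The duodenal Ldha libraries lay above all libraries of the other regions, while ileum and colon overlapped. In the duodenum Pkm2 exceeded the ileum by 1.80 ± 0.14 and the colon by 1.03 ± 0.13 (log2, SE, adjusted p = 3.4e-09 and 6.3e-07), and Ldha exceeded them by 0.80 ± 0.10 and 0.72 ± 0.09 (adjusted p = 2.2e-06 and 9.3e-07). Tpi1, Gapdh, Pgam1 and Eno1 were also higher in the duodenum than in both other regions under both scalings, by 0.35 to 1.32 on the TPM scale. Pgk1 was higher than in the ileum only (0.71 ± 0.11, adjusted p = 4.2e-05), its difference from the colon being called under median-ratio scaling (0.69) but not as TPM (0.09). Of these genes none was called higher in the ileum than in the colon under both scalings. Reads of Gapdh, Ldha, Pgk1, Tpi1, Pgam1, Eno1 and Aldoa may be shared with their processed pseudogenes, which the counting could have divided between copies.

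Lactate handling was divided between 2 transporters. Slc16a1 encodes MCT1, which carries lactate and butyrate, and Slc16a3 encodes MCT4, the lactate exporter of glycolytic cells. Slc16a1 stood at 31.3 to 54.1 TPM in duodenum (median 42.1), 30.5 to 39.4 in ileum (median 34.4) and 99.1 to 171.1 in colon (median 125.3). Slc16a3 stood at 18.1 to 49.05 (median 36.3), 6.43 to 20.1 (median 12.04) and 3.76 to 10.5 TPM (median 6.66). Set against the colon the pair ran in opposite directions, while both were higher in the duodenum than in the ileum (0.30 ± 0.11 for Slc16a1 and 1.41 ± 0.18 for Slc16a3, log2, SE, adjusted p = 0.043 and 3.2e-06). Slc16a1 made up 56.7 ± 6.49% of their summed TPM in duodenum, 74.1 ± 7.68% in ileum and 95 ± 1.6% in colon (SD). Slc16a3 exceeded the colon by 2.19 ± 0.17 in the duodenum and 0.78 ± 0.18 in the ileum (log2, SE, adjusted p = 4.7e-10 and 0.000724), the ileal difference being 0.23 with an adjusted p of 0.242 among deficient libraries alone. Slc16a1 was lower than in the colon by -1.52 ± 0.11 and -1.82 ± 0.11 (adjusted p = 7.6e-11 and 1.7e-11). Ldhb, the heart-type subunit, made up 0.145 ± 0.0401% of lactate dehydrogenase transcripts in duodenum, 0.521 ± 0.158% in ileum and 0.98 ± 0.219% in colon.

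At the entry of pyruvate into mitochondria, a subunit gene was lowest in the ileum. Dlat, the E2 subunit of pyruvate dehydrogenase, reached 39.5 to 59.3 TPM in duodenum (median 47.1), 11.6 to 26.1 in ileum (median 15.5) and 31.6 to 53.7 in colon (median 46.4), the ileal libraries lying below all others. It was higher in duodenum than in ileum by 1.59 ± 0.14, and lower in ileum than in colon by -1.44 ± 0.14 (log2, SE, adjusted p = 3.0e-08 and 3.2e-08). Pdha1 and Pdhb, the E1 subunits, were higher in the duodenum than in the ileum by 0.48 ± 0.12 and 0.85 ± 0.10 (adjusted p = 0.00545 and 7.8e-07). Pdk1, a kinase that switches the complex off, stood at 12.1 to 16.9 (median 13.9), 9.51 to 18.9 (median 12.4) and 14.5 to 29.04 TPM (median 23.1) in duodenum, ileum and colon. Its lower level in the duodenum and ileum was called as TPM (-0.63 and -0.74) and not under median-ratio scaling (-0.06 and -0.27).

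Fbp1 and G6pc were far higher in both regions of the small intestine than in the colon. G6pc, the glucose-6-phosphatase that releases free glucose, lay at 31.6 to 264.3 TPM in duodenum (median 71.9), 6.43 to 471.9 in ileum (median 16.5) and 0 to 3.71 in colon (median 0.166). Fbp1, fructose-1,6-bisphosphatase, lay at 85.3 to 269.8 (median 198.9), 32.8 to 172.1 (median 63.5) and 1.98 to 14.4 TPM (median 4.63). Neither gene had a colonic library as high as any from the small intestine. G6pc exceeded the colon by 5.54 ± 0.57 and 4.04 ± 0.60 in duodenum and ileum (log2 of TPM + 1, SE, adjusted p = 3.5e-08 and 7.6e-06), and Fbp1 by 4.88 ± 0.28 and 3.47 ± 0.29 (adjusted p = 3.6e-12 and 3.2e-09). Other genes encode the same activities. Fbp2, a second fructose-1,6-bisphosphatase gene outside the 35, had medians of 427.5 TPM in duodenum, 415.6 in ileum and 203.6 in colon, above Fbp1 in each, and exceeded the colon by 1.00 ± 0.12 and 0.94 ± 0.12 (log2, SE, adjusted p = 2.4e-07 and 1.8e-06). G6pc3, the widely expressed glucose-6-phosphatase, had medians of 21.5, 21.4 and 47.3 TPM, higher in the colon and above G6pc in ileum and colon. The highest G6pc library was treated 3xD5720 in every region. Without it in the ileum, G6pc was higher in the duodenum than in the ileum by 2.06 (adjusted p = 0.00095), against 1.50 ± 0.60 with it (adjusted p = 0.0611). Fbp1 exceeded the ileum by 1.41 ± 0.29 in the duodenum (adjusted p = 0.000819), but by 0.62 among 4-digit libraries (adjusted p = 0.279) and 1.12 among treated ones (adjusted p = 0.0678).

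Pck1, the cytosolic phosphoenolpyruvate carboxykinase, did not follow them. It ranged from 8.27 to 374.3 TPM in duodenum (median 82.8), 9.35 to 167.4 in ileum (median 80.8) and 49.8 to 130.8 in colon (median 99.9). The duodenum differed from the colon by -0.43 ± 0.52 and the ileum by -0.61 ± 0.54 (log2, SE, adjusted p = 0.461 and 0.329), so no regional difference was detectable against this spread. Pck1 made up 80.6 ± 6.73% to 82.9 ± 17.6% of Pck1 and mitochondrial Pck2 in the 3 regions. Pck2 itself was lower than in the colon by -1.08 ± 0.11 and -0.77 ± 0.12 (adjusted p = 4.1e-08 and 1.1e-05). Bnip3, a mitophagy receptor, stood at 11.8 to 38.2 TPM in duodenum (median 24.5), 14.9 to 46.1 in ileum (median 33.1) and 22.5 to 78.2 in colon (median 38.5), with overlap throughout.

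**Figure D2:**
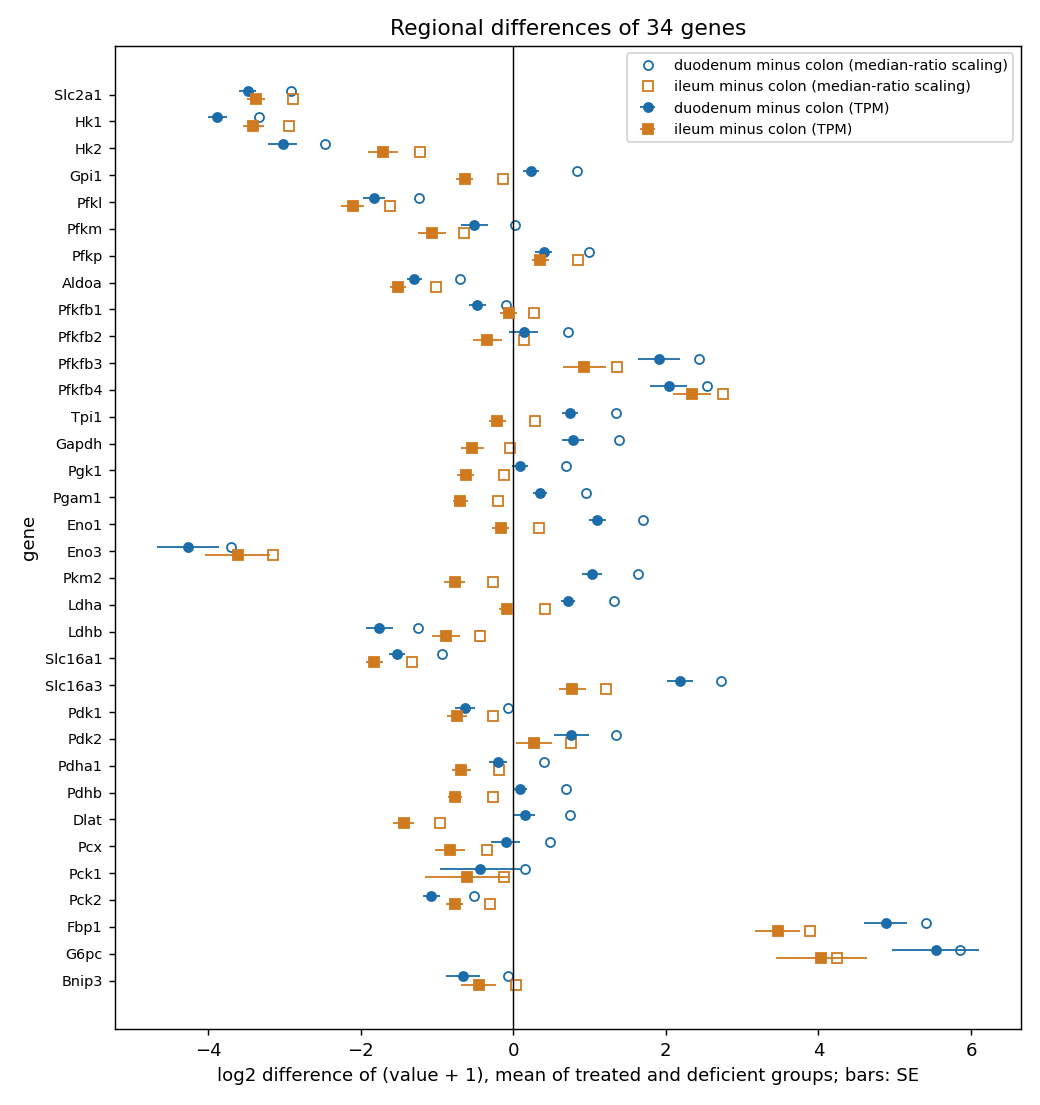
Log2 difference of each of 34 genes in duodenum (circles) and ileum (squares) from the colon, as TPM with SE (filled) and under median-ratio scaling (open). Fbp1, G6pc, Pfkfb4 and Slc16a3 lie right of 0 and Slc2a1, Hk1, Hk2, Pfkl, Eno3 and Slc16a1 left of 0 under both scalings, while Pdk1 and Bnip3 of the duodenum lie near 0 after median-ratio scaling.

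The libraries were also compared without a model. Every duodenal library lay above every colonic one for 8 of 34 genes and below for 9, against 5.4% and 28.3% of all genes. Every ileal library lay above every colonic one for 3 (Pfkfb4, Fbp1 and G6pc) and below for 11, against 3.39% and 20.8%. Every duodenal library lay above every ileal one for 8 genes (Gpi1, Tpi1, Pgam1, Eno1, Pkm2, Ldha, Pdhb and Dlat) and below for Hk2 alone, against 4.57% and 5.35%.

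Other genes of sugar metabolism were read from a list of 42, of which 36 were expressed enough to test. Under both scalings 16 were higher and 5 lower in duodenum than in colon, against 11.9% and 29.2% of all genes. In ileum 14 were higher and 4 lower than in colon, against 8.84% and 20.9%. In duodenum 19 were higher and 3 lower than in ileum, against 13.1% and 16.5%. Khk, ketohexokinase, reached 681.2 to 1257 TPM in duodenum, 208.9 to 370.8 in ileum and 9.79 to 25.3 in colon. The glucose transporter genes Slc5a1 (SGLT1) and Slc2a2 (GLUT2) exceeded the colon in the duodenum by 4.43 ± 0.20 and 7.94 ± 0.31 (log2, SE, adjusted p = 1.1e-13 and 6.2e-15). G6pc3 was lower in the duodenum and ileum by -1.10 ± 0.07 and -1.11 ± 0.07 (adjusted p = 1.1e-11 and 3.6e-11), opposite to G6pc. Of 18 genes of the hypoxia-inducible factor pathway, 2 were higher (Car9 and Mxi1) and 3 lower (Adm, Car12 and P4ha1) in duodenum than in colon. In ileum 0 were higher and 6 lower than in colon. These counts hold under both scalings, and the shares of all genes are those given above.

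Calcitriol was set against deficiency within each region on the deposited FPKM, as log2(FPKM + 1). In the duodenum 0 of 33 genes tested passed the adjusted threshold (limma), while 3 of 11734 genes in all did (0.0256%). At an unadjusted p under 0.05 there were 2 higher (Bnip3 and Pdhb) and 2 lower (Pfkp and Slc16a3), where 9.4% of all genes reached that level, 4.03% higher and 5.37% lower. The groups did not overlap for 0 of 33, against 4.37% of all genes (1.99% higher and 2.38% lower). The median difference of the 33 was 0.01 and that of all genes 0.01. Rescaling to TPM moved the median of all genes to -0.15 in duodenum, 0.02 in ileum and -0.14 in colon, and left 0 members called in each. A second tool, voom on recovered reads, called 0 of the 23 members whose reads were recovered. Leaving out any one of deficient 2 and the 3 treated 4-digit libraries left 1 gene passing overall.

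Pfkp had the smallest p of the 33. It measured 70.3 FPKM in treated 1 and 54.3, 53.1 and 50.02 in treated 3xD5711, 3xD5720 and 3xD5734, against 69.5, 79.4, 79.3 and 85.4 in deficient 5718, 1, 2 and 3. Treated 1 lay just above deficient 5718, and the other treated libraries lay below all deficient ones. The log2 difference was -0.46 ± 0.13 (SE, adjusted p = 0.499), with -0.21 among serial and -0.40 among 4-digit libraries. Slc16a3 measured 25.2, 14.4, 15.8 and 21.0 FPKM in treated 1, 3xD5711, 3xD5720 and 3xD5734, against 22.8, 23.9, 33.1 and 32.5 in deficient 5718, 1, 2 and 3. Here only treated 1 reached into the deficient range, for a difference of -0.55 ± 0.20 (adjusted p = 0.499) and of -0.22 and -0.42 within the serial and 4-digit schemes. Bnip3 measured 14.7, 25.5, 30.7 and 22.96 FPKM in treated libraries in that order, against 16.6, 12.3, 15.8 and 8.60 in deficient ones. Its 3 treated 4-digit libraries lay above all deficient ones, with treated 1 among them, at a difference of 0.77 ± 0.25 (adjusted p = 0.499), 0.29 within the serial and 0.63 within the 4-digit scheme.

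**Figure D3:**
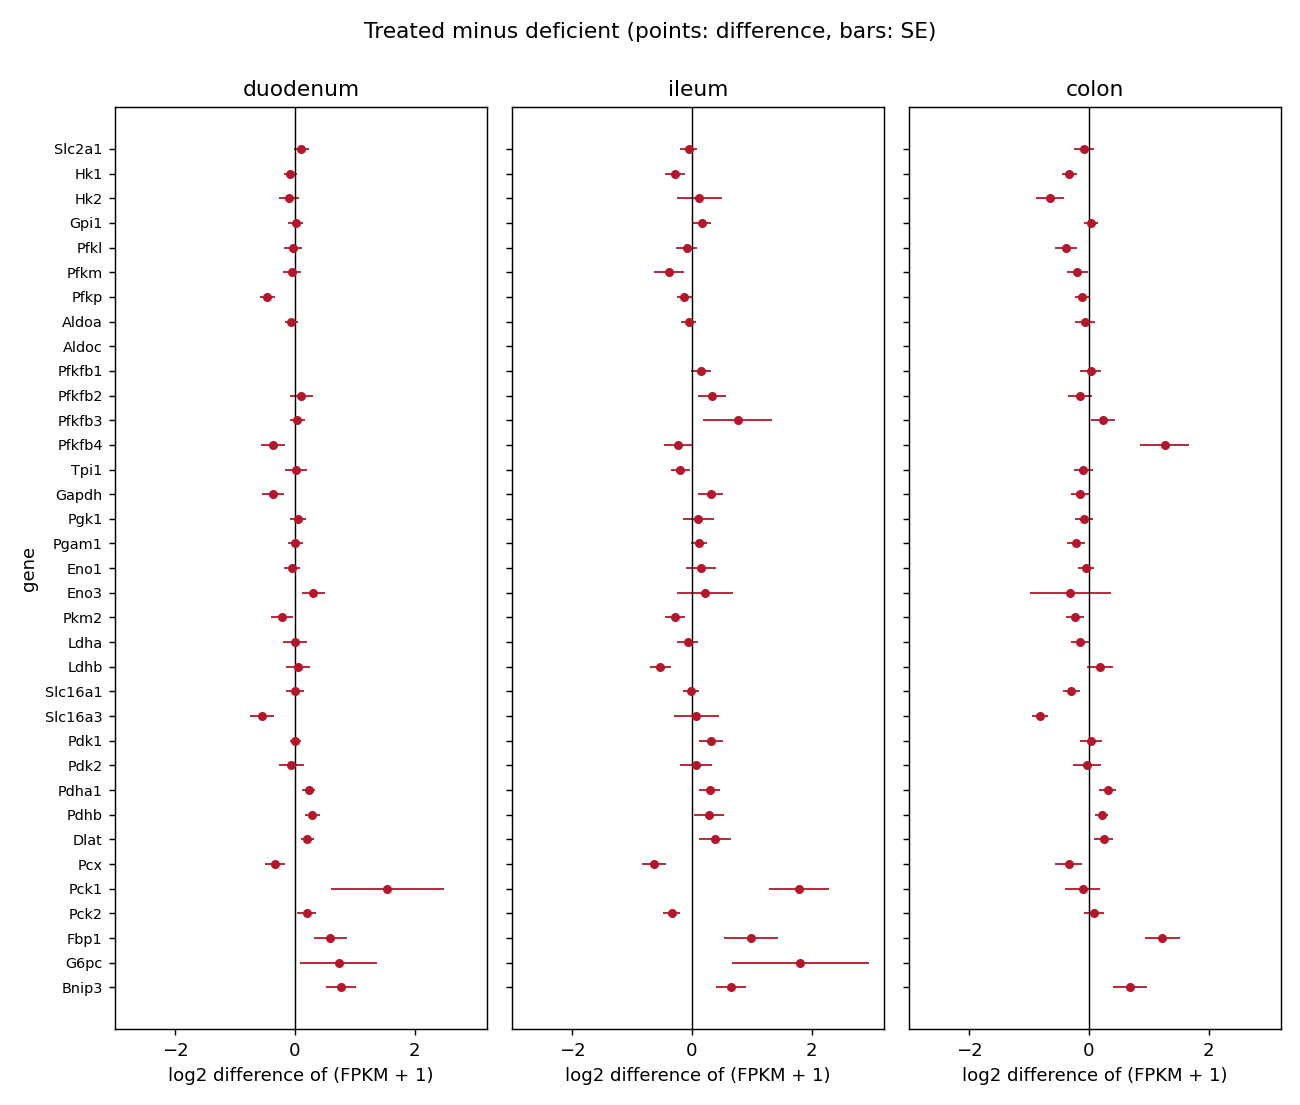
Treated minus deficient difference of log2(FPKM + 1) with its SE for each gene tested in the duodenum, ileum and colon; rows without a point were too low to test. No gene passed the adjusted threshold in any region, and the widest error bars are those of Pck1 in the duodenum and G6pc in the ileum.

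In the ileum 0 of 34 genes tested passed (limma), as did 0 of 12149 in all (0%), with 2 higher and 3 lower at an unadjusted p under 0.05 against 5.84% of all genes (709 genes, 3.09% higher and 2.74% lower). Voom called 0 of 24 members and 1 gene in all. The groups did not overlap for 4 of 34, Gapdh and Pck1 higher and Ldhb and Pcx lower, against 6.56% of all genes (3.35% higher and 3.21% lower). The median difference of the 34 was 0.11, against 0.01 for all genes. Pck1 measured 58.4, 69.7, 101.0 and 115.8 FPKM in treated 1, 3xD5711, 3xD5720 and 3xD5734, against 38.9, 36.5 and 8.67 in deficient 1, 2 and 3. All treated libraries were higher, with deficient 3 far below the other 2, and the difference was 1.79 ± 0.50 (log2, SE, adjusted p = 0.706) or 1.29 within the serial scheme. Pcx, pyruvate carboxylase, measured 10.9, 9.38, 6.57 and 10.4 FPKM in the treated libraries, against 17.6, 15.6 and 11.9 in the deficient ones. The difference was -0.64 ± 0.20 (adjusted p = 0.706) or -0.41 within the serial scheme. Ldhb measured 4.50, 4.67, 2.91 and 3.26 FPKM in treated libraries against 5.29, 6.92 and 5.54 in deficient ones, a difference of -0.53 ± 0.18 (adjusted p = 0.706).

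Treated 3xD5720 held the highest ileal value of 17 of the 34 genes, where it held that of 27.1% of all genes. Gapdh, which converts glyceraldehyde 3-phosphate, measured 741.5 FPKM there and 442.6, 439.8 and 460.0 in treated 1, 3xD5711 and 3xD5734, against 389.5, 400.8 and 438.1 in deficient 1, 2 and 3. Outside that library the groups lay close together, and the difference was 0.31 ± 0.21 (adjusted p = 0.711), or 0.13 at the lowest with 1 library left out. G6pc measured 388.6 FPKM in treated 3xD5720 and 10.6, 20.7 and 14.2 in the other treated libraries, against 10.4, 4.30 and 15.3 in the deficient ones. Its difference was 1.81 ± 1.14 (adjusted p = 0.706), and the lowest with 1 library left out was 0.65. Pfkfb3 measured 37.9 FPKM there, against 5.03 to 9.12 in the deficient libraries and 5.41 to 11.2 in the other treated ones. In that library the ileal enterocyte markers summed to 6809 FPKM, below the 13546 to 21388 of the other 6 ileal libraries. Fabp2 measured 1438 FPKM there against 8028 to 15201 in the others, and Vil1, Epcam, Krt20 and Alpi were also lowest there. Sis was instead highest there at 1494 FPKM, and Apoa4, at 1336, lay within the range of the others. The 4 proliferation markers summed to 125.0, above the 54.1 to 78.7 of the other 6 ileal libraries. The part of these marker levels in the values was not tested.

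**Figure D4:**
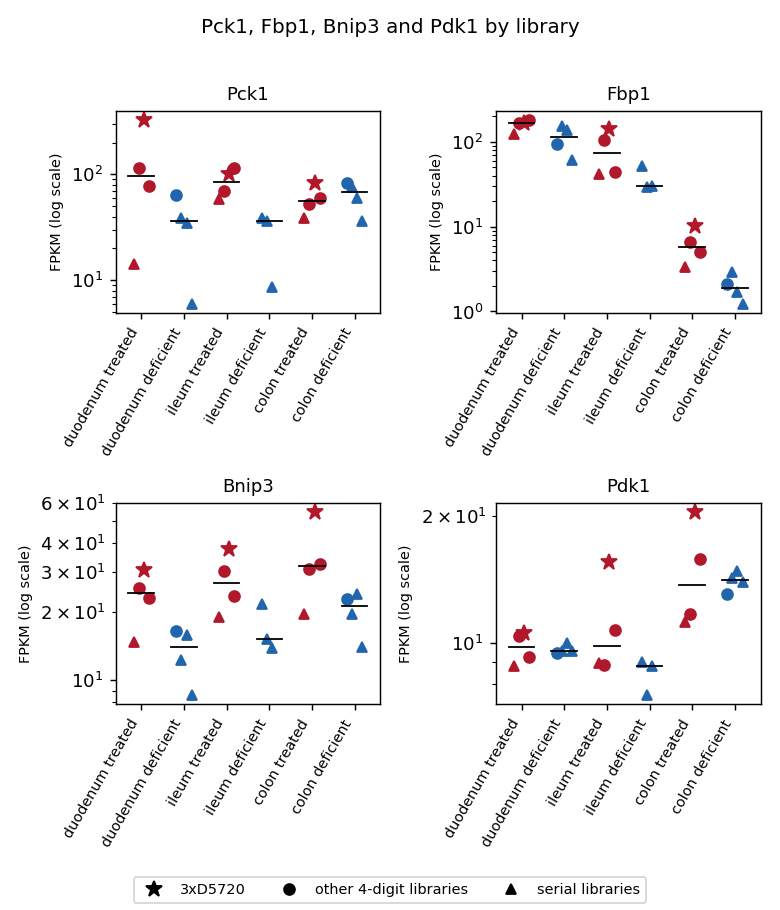
FPKM (log scale) of Pck1, Fbp1, Bnip3 and Pdk1 in each library by region, treated left of deficient, with group medians as bars and treated 3xD5720 as a star. Bnip3 and Pdk1 are highest in treated 3xD5720 in all 3 regions, and Fbp1 is far lower in the colon than in the other regions.

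In the colon 0 of 33 genes tested passed (limma), as did 0 of 12746 in all (0%), with 3 higher and 3 lower at an unadjusted p under 0.05 against 5.85% of all genes (746 genes, 2.92% higher and 2.93% lower). Voom called 0 of 23 members and 0 genes in all. The groups did not overlap for 3 of 33, Fbp1 higher and Hk1 and Slc16a3 lower, against 4.54% of all genes (2.22% higher and 2.32% lower). The median difference of the 33 was -0.09, against -0.01 for all genes. Slc16a3 measured 3.63, 2.87, 2.66 and 2.33 FPKM in treated 1, 3xD5711, 3xD5720 and 3xD5734, against 5.34, 6.14, 6.20 and 5.55 in deficient 5718, 1, 2 and 3. The gap between groups exceeded the range within either, and the difference was -0.82 ± 0.14 (log2, SE, adjusted p = 0.275), -0.59 within the serial and -0.81 within the 4-digit scheme. Fbp1 measured 3.36, 6.58, 10.1 and 4.98 FPKM in treated libraries in that order, against 2.09, 2.94, 1.71 and 1.24 in deficient ones. Treated 1 was the lowest treated value, close above deficient 1, and the difference was 1.22 ± 0.29 (adjusted p = 0.619), 0.60 within the serial and 1.37 within the 4-digit scheme. Treated 3xD5720, the highest for Fbp1, also held markers of liver and pancreas: the 5 liver markers summed to 295.4 FPKM there and 14.2 to 35.6 in the other 7 colon libraries, and the 6 exocrine pancreas markers to 16239 there and 2.40 to 2222.5 in the others. Alb was at 240.1 FPKM there and 0.303 to 0.776 in the others. Fbp1 is known as a liver enzyme, and without that library its difference was 0.99 (adjusted p = 0.765). Each other treated library also had more Fbp1 than every deficient one, with liver sums in the lower range just given. The part of liver tissue in the Fbp1 difference was not tested. Hk1 measured 43.8, 43.5, 38.9 and 42.0 FPKM in treated libraries against 53.9, 63.4, 50.5 and 45.2 in deficient ones, a difference of -0.33 ± 0.12 (adjusted p = 0.846).

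Pfkfb4 turned on 1 colonic library. It measured 7.47, 5.38, 5.22 and 6.87 FPKM in treated 1, 3xD5711, 3xD5720 and 3xD5734, against 1.52, 1.10, 0.898 and 6.80 in deficient 5718, 1, 2 and 3. Deficient 3 lay within the treated range and the other 3 deficient libraries far below it. The difference was 1.27 ± 0.41 (log2, SE, adjusted p = 0.789), and 1.43 within each naming scheme. Without deficient 3 it was 1.73 (adjusted p = 0.0467), and 3 genes in all then passed. Without treated 1, 1 gene passed. Among other tissues, the 7 adipocyte markers summed to 280.4 to 401.7 FPKM in treated and 141.5 to 273.4 in deficient colon libraries, without overlap. In the duodenum they summed to 149.4 to 211.4 in treated against 81.2 to 148.1 in deficient libraries. Ileal sums overlapped, at 371.7 to 559.6 FPKM in treated and 308.0 to 400.4 in deficient libraries. Fabp4 had the highest median level of the 7 in colon and duodenum. Adipoq by itself overlapped in the colon (13.7 to 21.7 FPKM in treated, 6.34 to 16.3 in deficient libraries). It also overlapped in the duodenum (1.33 to 4.64 and 0.836 to 5.31), and the other markers are not given singly here. All 7 were measured, and the part of the markers in the colonic and duodenal differences was not tested.

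**Figure D5:**
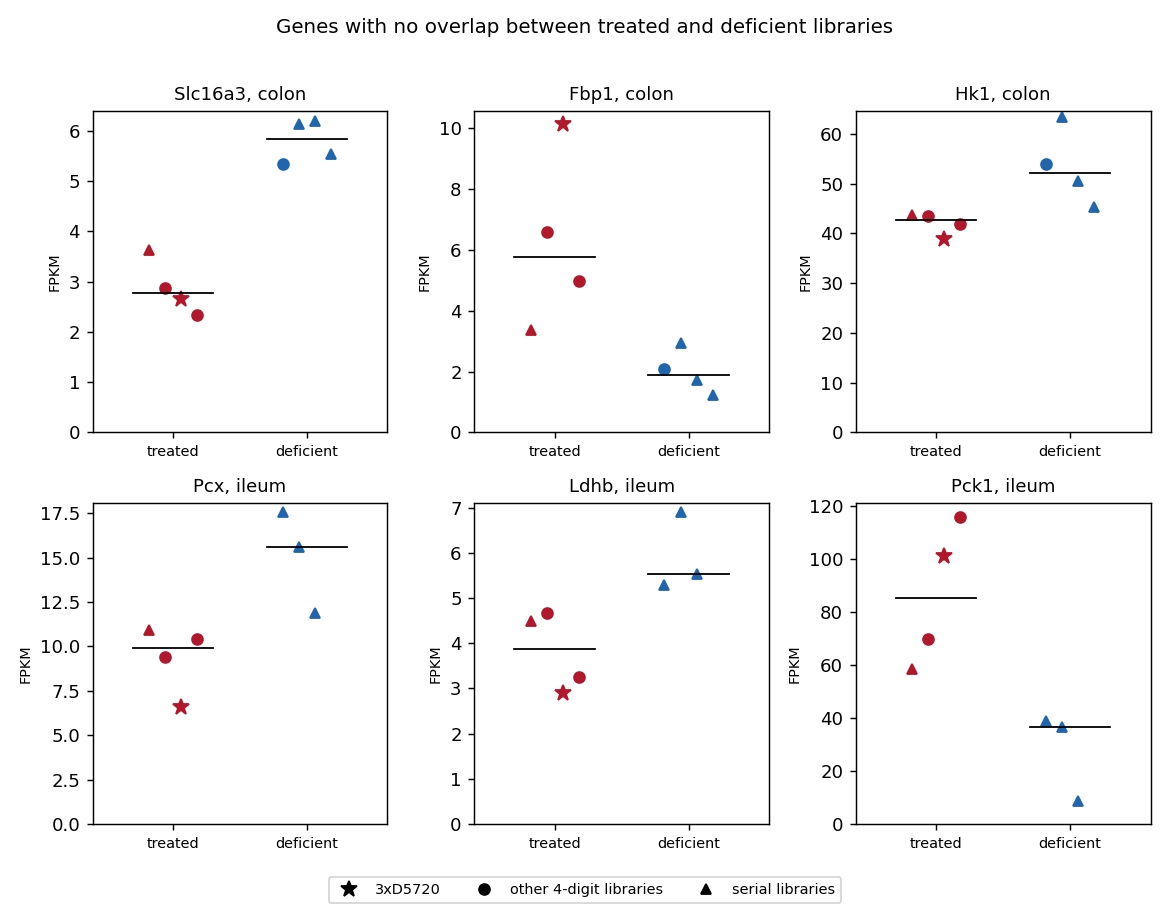
FPKM of 6 genes whose treated and deficient libraries did not overlap, in the colon (Slc16a3, Fbp1, Hk1) and ileum (Pcx, Ldhb, Pck1), treated left of deficient, with group medians as bars and marker shape giving the naming scheme. Slc16a3 lies at 2.33 to 3.63 in treated and 5.34 to 6.20 in deficient colon libraries.

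Of the 32 members tested in every region, 8 had a positive difference in all 3 and 8 a negative one in all 3. The share over all genes was not computed, so these counts give no result about the members. Bnip3 and Fbp1 are among the 8 positive ones, with Gpi1, Pfkfb3, Pdk1, Pdha1, Pdhb and Dlat. Bnip3 differed by 0.77 ± 0.25, 0.66 ± 0.25 and 0.68 ± 0.29 in duodenum, ileum and colon (log2, SE, adjusted p = 0.499, 0.706 and 0.846), and Fbp1 by 0.59 ± 0.27, 0.99 ± 0.45 and 1.22 ± 0.29 (adjusted p = 0.532, 0.706 and 0.619). None passed the adjusted threshold, and columns of the same number may come from the same animal, so the regions are not independent. Within the serial scheme the Bnip3 differences were 0.29, 0.19 and 0.05, and those of Fbp1 were 0.18, 0.20 and 0.60. Pfkfb3 was negative there in all 3 regions, at -0.23, -0.17 and -0.20. Gpi1, Dlat, Pdk1 and Pdha1 were each negative there in at least 1 region, and Pdhb in none. Whether the shared directions follow treatment or naming scheme was not tested. Treated 3xD5720 was highest in all 3 regions for Bnip3, at 30.7, 37.9 and 55.0 FPKM. Without single libraries the lowest Bnip3 differences were 0.59, 0.50 and 0.43. The Slc16a3 differences were -0.55 ± 0.20, 0.07 ± 0.38 and -0.82 ± 0.14, and dropping 1 library at a time gave ileal values between -0.20 and 0.35.

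Whether the response itself differed between regions was tested in one fit of all 23 libraries. Of 14082 genes, 0 passed in each of the 3 comparisons (limma, 0%), with 216 (1.53%) at an unadjusted p under 0.05 for duodenum against colon, 487 (3.46%) for ileum against colon and 633 (4.5%) for duodenum against ileum. Of the 34 members 0 passed. The smallest p of a member was that of Pfkfb4, whose response in the duodenum minus that in the colon was -1.85 ± 0.48 (log2, SE, adjusted p = 1.0), and without deficient 3 of the colon -2.36 (adjusted p = 0.00395). Slc16a3 differed by 1.09 ± 0.35 between ileum and colon (adjusted p = 0.941) and Gapdh by -0.87 ± 0.30 between duodenum and ileum (adjusted p = 0.855). With single libraries left out, 1 gene passed without deficient 1 of the duodenum (duodenum against colon and against ileum), without deficient 3 of the colon (duodenum against colon), without treated 3xD5734 of the colon (ileum against colon and duodenum against ileum), and without treated 3xD5711 or 3xD5720 of the colon (duodenum against ileum).

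Among the 42 other genes of sugar metabolism, 0 passed in any region (limma), of 32, 34 and 34 tested. At an unadjusted p under 0.05, 1 was higher and 3 lower in duodenum, 3 and 0 in ileum and 1 and 1 in colon. Of all genes 4.03% were higher and 5.37% lower in duodenum, 3.09% and 2.74% in ileum and 2.92% and 2.93% in colon. Pklr, the pyruvate kinase of liver and small intestine, measured 188.6, 139.1, 145.2 and 165.8 FPKM in treated duodenal libraries, against 211.8, 229.7, 235.2 and 202.7 in deficient ones. Every treated library was lower, at a difference of -0.47 ± 0.13 (adjusted p = 0.499). Slc37a4, which carries glucose 6-phosphate to glucose-6-phosphatase, measured 11.7, 30.9, 25.5 and 30.8 FPKM in treated duodenal libraries, against 7.43, 15.1, 12.4 and 16.1 in deficient ones (0.86 ± 0.33, adjusted p = 0.503). Pdk4, a further pyruvate dehydrogenase kinase, was at 40.2 FPKM in treated 3xD5720 of the ileum and 1.17 to 9.34 in the other 6 libraries. Of the 18 hypoxia-inducible factor genes 0 passed. At an unadjusted p under 0.05, 1 was higher and 1 lower in duodenum, 1 and 0 in ileum and 0 and 0 in colon. The shares of all genes are those given above.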

How the data were processed

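The authors deposited FPKM for 21441 genes in each table, with a column for every library. Per the labels' protocols reads were mapped with CLC Genomics Workbench, and per the submitters' processing notes kallisto 0.45.0, DESeq 1.14.0, DESeq2 and build mm9 were also used, with no role given. The 8-library ileum table equalled the duodenum table in 171528 of 171528 values, so the 7-library ileum table was used, a departure from the planned 4 against 4. Columns named Vehicle were taken as the deficient group. Reads were recovered from the FPKM steps for 82.2%, 82.2% and 82.4% of expressed genes (within 0.0001 of a whole number) and depths leave out the rest.

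Genes with at least 1 FPKM (or TPM) in 3 libraries were tested on log2(value + 1), which understates changes of low genes, with limma 3.58.1 in R 4.3.3 (lmFit, eBayes with trend), two-sided, Benjamini-Hochberg over all genes, threshold 0.05. Treatment was tested within each table. Region contrasts and interactions came from one fit of 6 group means on TPM. The script was tested on simulated data. Members and lists were chosen with earlier results of these data known. Genes given in full were members past the threshold, with groups apart or with the 3 smallest p per tissue, 13 genes fixed by role, and the 5 largest differences per pair of regions. Alternatives were pseudocount, filter, scaling, naming scheme, voom, subsets and leaving out libraries.

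Deviations of same-numbered columns correlated over 0.1 for 7 of 7 pairs of duodenum and ileum (median 0.22, lowest 0.13). The same held for 7 of 8 pairs of duodenum and colon (median 0.18, lowest -0.03). For ileum and colon it held for 6 of 7 (median 0.24, lowest 0.06). Columns of different numbers were not compared, so whether the numbers pair the regions was not settled. The main region fits took libraries as independent, and the column number entered as a block among the alternatives.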

Additional observations from a re-analysis of the deposited data

Results flagged for a closer look

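Of 169 groups of 4 libraries, 10 held a library far from the other 3 (by its gap to the nearest, as a share of the range), a share that chance gives at about 1 in 20. In treated ileum, 3xD5720 was the highest for Gapdh (741.5 FPKM, others 439.8 to 460.0), Pgk1 (440.7, others 213.1 to 241.5), Pdhb (128.7, others 70.4 to 77.3) and G6pc (388.6, others 10.6 to 20.7). In the duodenum, Pkm2 was at 1147 FPKM in treated 3xD5734 (others 831.8 to 866.1), Pfkl at 18.4 in deficient 2 (others 13.3 to 14.0) and Eno3 at 4.31 in deficient 5718 (others 2.48 to 2.66). In the colon, Tpi1 was at 563.8 FPKM in treated 1 (others 363.1 to 390.0), Pfkfb4 at 6.80 in deficient 3 (others 0.898 to 1.52) and Pkm2 at 622.9 in deficient 1 (others 423.4 to 456.5).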

How the results depend on the processing

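Of the 26 single-gene differences selected by the naming rule, none changed direction under the alternatives run. They were picked for groups apart, small p or large size in these same data, which made a kept direction likely beforehand. Outside them, the ileal Slc16a3 difference (0.07) lay between -0.20 and 0.35 with libraries left out. The number of all genes called for calcitriol was small under every setting. In the duodenum it was 3, and 1 with a pseudocount of 0.1, with a mean FPKM of at least 1, with the naming scheme as a covariate and with voom, and 1 to 4 with single libraries left out. In the ileum it was 0, and 1 with no filter and with voom, and 0 with any library left out. In the colon it was 0, and 2 with the naming scheme, and 0 to 3 with libraries left out. For the interactions of duodenum against colon and against ileum it was 0, and 1 with a pseudocount of 0.1, and 0 to 1 with libraries left out in all 3. Members called between duodenum and ileum numbered 21, and 10 among 4-digit libraries, with 19 to 23 when libraries were left out. The cause of these changes was not tested. With the column number as a replicate block, 26 members were called between duodenum and ileum (21 higher, 5 lower), and the block moved no count by over 1.5 times. It called G6pc higher in the duodenum than in the ileum (1.47, adjusted p = 0.0103). No paired analysis was possible because the columns carry no replicate number of the labels for treated against deficient libraries. Without the 3 libraries of 3xD5720, an alternative chosen after seeing the data, 27, 27 and 23 members were called between duodenum and colon, ileum and colon, and duodenum and ileum. Libraries of 3 or 4 per group limit what could be detected.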
